A study of Mus musculus with 30 samples.

Results

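The 10 transcripts described here are markers of disease-associated microglia and of the pathway through the receptor TREM2 and the lipoprotein APOE: Trem2, Tyrobp, Apoe, Lpl, Cst7, Itgax, Spp1, Clec7a, Axl and Cd9. They were taken by gene symbol from a deposited expression table in FPKM units (fragments scaled to transcript length and to the mapped fragments of each library), in which all 10 were found among 23993 rows. RNA came from cells sorted by fluorescence for the reporter tdTomato from the medial prefrontal cortex of mice, and the sort was set for interneurons. All mice were C57BL/6, aged 6 to 12 weeks and heterozygous for the Ai9 tdTomato reporter, with Cre driven from the Sst gene (Sst tdT, somatostatin interneurons) or from the Pvalb gene (Pvalb tdT, parvalbumin interneurons). The 4 groups were control Sst females (7 libraries), control Sst males (7), Sst males exposed to chronic unpredictable stress (CUS) for 14 days (3) and control Pvalb males (7). The reporter is switched on by Cre at any time in development, so a tagged cell need not express the driver gene when it is sorted. Whether a library holds 1 animal or a pool is not stated, so p-values measure the spread between these libraries. A further 6 labelled samples were not analysed here.

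Microglia are the resident macrophages of the brain. In models of amyloid, demyelination and ageing, microglia that lose homeostatic transcripts such as P2ry12 and Tmem119 gain a set led by Apoe, Lpl, Cst7, Itgax, Spp1, Clec7a, Axl and Cd9. The gain is described as stage 1, which does not need TREM2, and stage 2, which does. TREM2 is a surface receptor that binds lipids and lipoproteins, APOE among them, and it signals through its adaptor TYROBP (DAP12), whose phosphorylated tail recruits the kinase SYK. In the healthy cortex Apoe is mainly an astrocyte transcript, whereas Trem2 and Tyrobp belong to microglia.

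Sequences just before the start site are shown for Trem2, the receptor after which the pathway is named, and for Cst7 and Itgax, which were high in the same Pvalb libraries. They are RefSeq sequences of GRCm38.p6, 250 bases ending at the base before the listed start site, 5′ to 3′ on the strand of the gene. Capitals mark GAGGAA and GGAAGT (letters used in searches for PU.1 and other ETS factors) and TGACTCA (AP-1) on either strand.

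Trem2 (chr17:48346151-48346400, + strand): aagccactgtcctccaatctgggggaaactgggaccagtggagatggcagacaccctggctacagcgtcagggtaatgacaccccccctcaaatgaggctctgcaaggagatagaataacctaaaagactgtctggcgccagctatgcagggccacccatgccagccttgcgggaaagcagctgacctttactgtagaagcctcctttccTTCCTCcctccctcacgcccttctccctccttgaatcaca
Cst7 (chr2:150570165-150570414, + strand): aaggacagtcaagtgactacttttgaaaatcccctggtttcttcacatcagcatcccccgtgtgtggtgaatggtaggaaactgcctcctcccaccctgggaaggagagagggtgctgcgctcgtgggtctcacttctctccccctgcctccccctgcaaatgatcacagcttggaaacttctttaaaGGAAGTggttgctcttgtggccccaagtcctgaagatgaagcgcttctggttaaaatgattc
Itgax (chr7:128129300-128129549, + strand): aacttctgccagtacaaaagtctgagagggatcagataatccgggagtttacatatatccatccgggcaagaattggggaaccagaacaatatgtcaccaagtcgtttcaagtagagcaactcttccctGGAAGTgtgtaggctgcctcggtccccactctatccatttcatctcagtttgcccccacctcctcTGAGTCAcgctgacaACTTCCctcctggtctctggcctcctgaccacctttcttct

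The Trem2 window held GAGGAA, as its reverse complement, 40 bases before the start site. Cst7 held GGAAGT 62 bases before its start site. Itgax held GGAAGT on both strands, 41 and 121 bases before its start site, and TGACTCA as its reverse complement at 56 bases. The listed start site of Itgax lies inside the gene span, which begins at 128129526, so the last bases of its window fall within the gene. Windows were found for 8 of the 10 members (Tyrobp and Lpl had none). GAGGAA was in a window of 5 of these 8 (Trem2, Apoe, Spp1, Clec7a and Axl) and in 23.3% of all 32851 windows of this length. GGAAGT was in 3 (Cst7, Itgax and Spp1) against 19.7% of windows, in Spp1 overlapping GAGGAA, and TGACTCA was in Itgax alone against 4.46%. CACGTG, the letters of the TFEB and MITF site, was in none of the 8 against 6.02% of windows. Some members have more than 1 listed start site and so more than 1 window. These matches describe letters and not binding.

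Before any comparison, the libraries were checked against their labels. Marker lists were summarised as the mean of log2(FPKM + 1) over their genes. Homeostatic microglia markers had means of 7.29 to 9.03 in the 24 libraries, astrocyte markers 5.04 to 6.46 and oligodendrocyte markers 5.10 to 7.34, whereas interneuron markers (Gad1, Gad2, Slc32a1 and others) had 0.940 to 2.53. The labelled cell type was therefore not the one whose markers were highest. Sst itself was at 4.18 to 49.3 FPKM in the libraries of Sst females (highest in SST-F), at 0 to 6.02 FPKM in those of Sst males and at 12.3 to 30.5 FPKM in those of Pvalb males. Border macrophage and blood myeloid markers had means of 0.461 to 2.33. In bulk libraries, more cells of a type and more RNA per cell cannot be told apart.

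**Figure D1:**
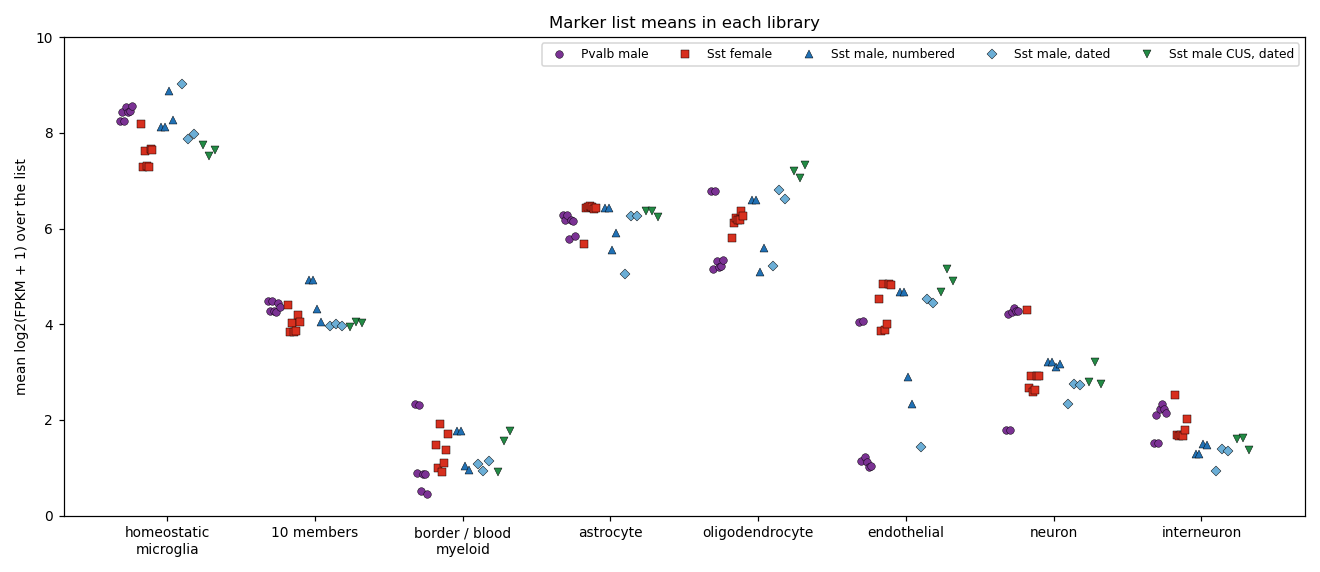
Mean log2(FPKM + 1) of each marker list (vertical axis) in every library, 1 point per library, with groups by colour and shape. Homeostatic microglia markers lie highest of the plotted lists in every library and interneuron markers near the bottom, and the 10 members lie between 3.83 and 4.92.

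Libraries also fell into sets that were more alike than others of the same group. SST0-M with SST1-M and PV0-M with PV2-M had almost the same values (SD of the log2 ratio 0.0212 and 0.0170) and were averaged, which left 22 samples. Beyond these, SST1-F, SST3-F and SST4-F formed a set, as did SST2-F, SST5-F and SST6-F, PV1-M, PV4-M and PV5-M, PV3-M and PV6-M, SST040241L and SST04241LL, and the 3 CUS libraries. The SD of the log2 ratio was 0.218 to 0.277 within these sets and 0.413 to 1.33 between libraries of a group in different sets. Sets were sought only within groups. Between libraries of different groups the SD was 0.283 to 1.22, so some of these were nearly as alike as libraries of a set. Within groups the 24 libraries thus formed 12 sets, 3 of control Sst females, 5 of control Sst males, 1 of CUS males and 3 of Pvalb males. Where libraries of a set are not independent, the p-values below are too small. Calls of members are therefore also given with each set averaged to 1 sample, except in some fits with fewer samples and in the closing section on processing. PV1-M, PV4-M and PV5-M, labelled male, held 300.2 to 333.1 FPKM of Xist, which goes against the label. Sst males had 2 kinds of title: 4 control libraries (3 samples) had a number like the females and Pvalb males, and 3 control libraries and all 3 CUS libraries had a title that reads like a date. In libraries with dated titles 53.5% to 75.7% of all FPKM came from small nucleolar RNA genes, against 1.87% to 8.29% in the others.

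FPKM is scaled to transcript length, so levels are set side by side between genes here. Such ranks are approximate: genes shorter than 800 bases, Tyrobp among them, tended to lie lower in dated than in numbered control males (median difference -0.56 in log2(FPKM + 1)). Averaged over the 22 samples, Apoe stood at 879.3 FPKM (rank 40 of the 23993 rows), Tyrobp at 610.2 (rank 55), Trem2 at 131.5 (rank 334), Cd9 at 71.4 (rank 698) and Axl at 21.5 (rank 3061). The other 5 members were low: Spp1 at 3.31 FPKM, Cst7 at 2.02, Itgax at 1.65, Lpl at 1.40 and Clec7a at 0.670. Among these, Spp1 and Clec7a were each listed at 0 in 3 libraries and Cst7 in 1. Clec7a was above 0.4 FPKM in 14 of 24 libraries. In an FPKM table a value of exactly 0 may mean that no estimate could be made, so no fold is given against it. In these averages Trem2, Tyrobp and Apoe, which resident microglia or astrocytes express without disease, were above the other 7 members. Of those, Cd9 and Axl were well above the 5 low ones. The ranking did not hold in every group. Tyrobp averaged 64.8 FPKM in CUS males, below Trem2 (107.6) and Cd9 (74.9). In dated control males it averaged 96.6 FPKM, below Trem2 (141.9). The order of Apoe and Tyrobp was not the same in all groups either: Tyrobp was above Apoe in all Pvalb and numbered Sst male libraries and below it in all dated libraries.

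**Figure D2:**
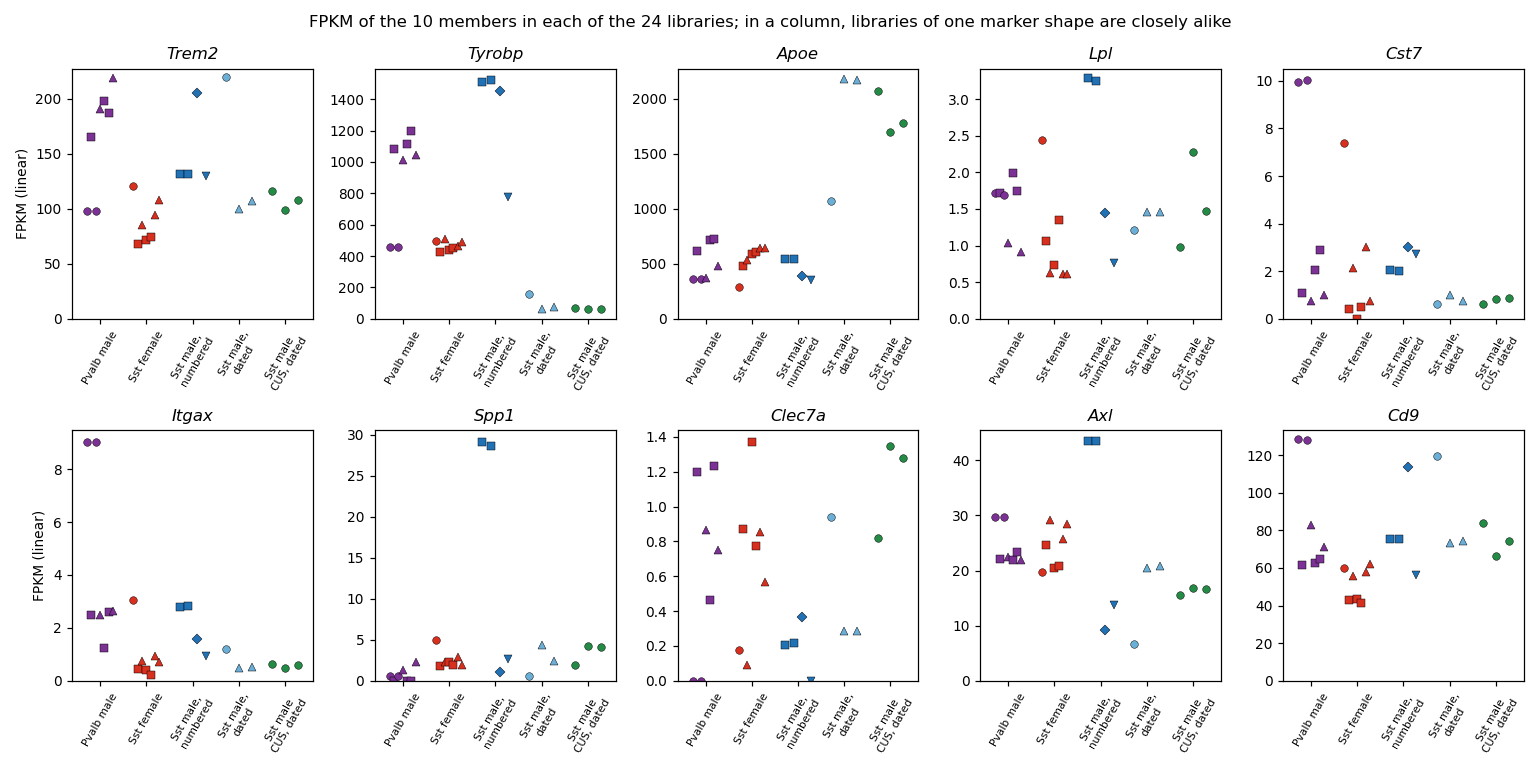
FPKM (vertical axis, linear, from 0) of each of the 10 members in every library, by group; within a column, libraries drawn with the same marker shape form 1 set of closely alike libraries. Tyrobp and Apoe separate the libraries by title kind, Cst7 and Itgax are highest in 2 Pvalb libraries, and Spp1 is highest in 2 numbered Sst male libraries.

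Trem2 (chr17:48346401-48352276, GRCm38.p6) ranged from 68.3 to 219.7 FPKM over the libraries. Control Sst females ranged from 68.3 to 120.9 FPKM (median 85.2, n = 7), and control Sst males from 99.4 to 219.7 (median 130.8, n = 6). Pvalb males ranged from 97.7 to 219.0 FPKM (median 188.3, n = 6), and the CUS males had 98.7, 107.9 and 116.1. The 2 groups of control Sst samples overlapped only through SST-F and SST6-F on one side and SST040241L and SST04241LL on the other. Trem2 was highest in SS04031R, PV6-M and SST3-M, at 219.7, 219.0 and 204.8 FPKM. Across the 22 samples Trem2 followed the mean of the homeostatic microglia markers (Pearson r = 0.93, and 0.92 across the 12 sets) and ran against the astrocyte mean (r = -0.73 and -0.76). The samples share composition, so these values describe the libraries and carry no p. The 3 genes most like Trem2 over the 22 samples were Pik3r5 (r = 0.949), Abi3 (0.934) and Clic1 (0.933). Abi3 is a microglial regulator of actin and Pik3r5 a subunit of a phosphoinositide 3-kinase of leukocytes.

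Tyrobp (chr7:30413782-30417582), the adaptor, spanned 59.96 to 1522 FPKM, 25.4-fold, although its receptor Trem2 spanned 3.21-fold. Pvalb males had 460.3 FPKM in the mean of PV0-M and PV2-M and 1015 to 1199.7 in the other 5. Control Sst females lay within a narrow range, 428.1 to 507.7 FPKM. Numbered Sst males had 775.5, 1452 and 1517 FPKM. Dated control males had 60.6, 73.1 and 156.3 FPKM, and CUS males 59.96, 63.5 and 71.0, so no dated library reached the lowest numbered one. Within the 16 numbered samples Tyrobp moved with Trem2 (r = 0.87), whereas over all 22 samples r was 0.40. Genes most like Tyrobp over the 22 samples were E230029C05Rik (r = 0.972), Fcer1g (0.970) and Rpl39 (0.965). Fcer1g encodes the Fc receptor gamma chain, another small adaptor with the same kind of signalling tail, and Rpl39 a ribosomal protein. Within the numbered samples alone these values were 0.834, 0.829 and 0.818.

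Apoe (chr7:19696244-19701310), the lipoprotein, had 291.5 to 646.7 FPKM in control Sst females, 363.9 to 729.2 in Pvalb males and 357.2, 391.4 and 542.7 in numbered Sst males. Dated control males had 1072, 2169 and 2180.2 FPKM, and CUS males 1702, 1781 and 2073. Dated libraries were thus the high ones for Apoe and the low ones for Tyrobp. Over the 22 samples the correlation of Apoe with Tyrobp was -0.85, and within the 16 numbered samples it was 0.07. The genes most like Apoe were Amer2 (r = 0.961), the hexokinase Hk1 (0.956) and the myosin Myh14 (0.953). Lpl (chr8:68880555-68906932), which hydrolyses the triglycerides of lipoproteins, stayed between 0.613 and 3.28 FPKM. It was highest in the mean of SST0-M and SST1-M (3.26 FPKM) and next in SST-F (2.43).

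**Figure D3:**
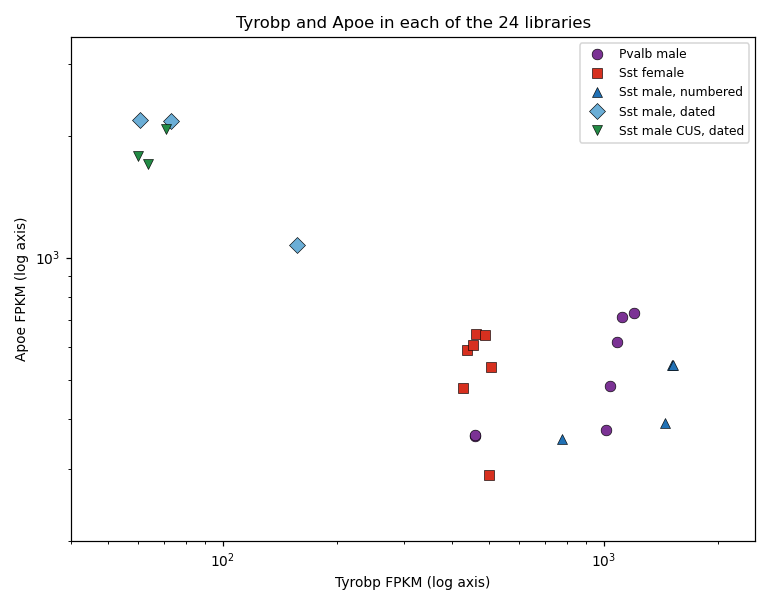
Tyrobp FPKM (horizontal, log axis) against Apoe FPKM (vertical, log axis), 1 point per library. The 6 dated libraries, control and CUS alike, form a group at 59.96 to 156.3 FPKM of Tyrobp and at least 1072 FPKM of Apoe, apart from the 18 numbered libraries.

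Cst7 (chr2:150570415-150578944), an inhibitor of lysosomal cathepsins, and Itgax (chr7:128129526-128150657), the integrin CD11c, were both highest in the pair PV0-M and PV2-M. In that pair Cst7 was at 9.99 FPKM and Itgax at 9.02. The other 5 Pvalb samples had 0.771 to 2.88 FPKM of Cst7 and 1.25 to 2.64 of Itgax. Next in order came SST-F, with 7.37 FPKM of Cst7 and 3.05 of Itgax, while the other 6 females had 0 to 3.04 and 0.210 to 0.925. The same Pvalb pair had the highest Cd9 (128.4 FPKM) and, among Pvalb samples, the highest Axl (29.7) and the lowest Tyrobp and Trem2. It also stood apart in marker lists, with means of 4.05 for endothelial, 2.33 for border and blood myeloid and 1.79 for neuron markers in PV0-M. The other Pvalb libraries had at most 1.23, at most 0.887 and at least 4.22. The part of these other cells in the Cst7 and Itgax values was not tested. Cst7 and Itgax had r = 0.72 over the 22 samples, the highest between any 2 members.

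Spp1 (chr5:104435111-104441053), the secreted protein osteopontin, was at 28.9 FPKM in the mean of SST0-M and SST1-M. No other sample exceeded 4.92 FPKM. It was listed at 0 in PV1-M, PV4-M and PV5-M, the set with high Xist, and had 0.588 to 2.25 FPKM in the other Pvalb libraries. The SST0-M and SST1-M pair also had the highest Axl (43.5 FPKM) and Lpl. Clec7a (chr6:129461591-129472785), the receptor dectin-1 for fungal glucans, never exceeded 1.37 FPKM, and its locus overlaps the annotated gene Gm45969, whose reads cannot be told apart where strand is unknown. Its median was 0.774 FPKM in females, 0.288 in control Sst males, 0.809 in Pvalb males and 1.28 in CUS males, with overlapping ranges.

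Axl (chr7:25756500-25788924), a receptor tyrosine kinase of phagocytes that astrocytes also express, had 19.7 to 29.1 FPKM in females and 21.8 to 29.7 in Pvalb males. The 2 control Sst male libraries with the highest Trem2, SS04031R and SST3-M, had the lowest Axl of all, 6.60 and 9.21 FPKM, and the lowest astrocyte means (5.04 and 5.54). Across samples Axl followed the astrocyte mean (r = 0.73 over 22 samples, 0.69 over the 16 numbered ones and 0.82 over 12 sets). The genes most like Axl were Timp3 (r = 0.903), the astrocyte aldolase Aldoc (0.895) and Mpp2 (0.887). Cd9 (chr6:125460266-125494760), a tetraspanin of microglia, oligodendrocytes and other cells, had 41.2 to 62.1 FPKM in females and 56.2 to 119.4 in control Sst males. Its locus overlaps Gm28809 and Gm26728. Cd9 followed the homeostatic microglia mean (r = 0.69), and its likest genes were Pcid2 (0.894), Tgfbr2 (0.891) and Tlr6 (0.890). The genes most like the low members were Ggct for Lpl (r = 0.853), Reep3 for Cst7 (0.831), Snap23 for Itgax (0.908), Mast4 for Spp1 (0.884) and Tufm for Clec7a (0.713).

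The kind of title runs with the groups, so its own difference was measured first, in control Sst males (3 dated against 3 numbered samples). Tyrobp was lower in dated samples, the largest difference of the 9 members tested, and Apoe was higher. Differences here and below are in log2(FPKM + 1), tested with limma over all genes above a mean of 0.4 FPKM with Benjamini-Hochberg adjustment at 0.05. Tyrobp differed by -3.74 (SE 0.46, adjusted p = 0.0114) and Apoe by 2.02 (SE 0.41, adjusted p = 0.0411). These were 2 of the 9 members tested (Clec7a was below the filter), where 4.11% of 14230 genes were called. Groups did not overlap for 3 members, Tyrobp, Apoe and Cst7 (-1.001, SE 0.33, adjusted p = 0.123), where 33.5% of genes did not overlap. Trem2, the partner of Tyrobp, differed by -0.19 (SE 0.40, adjusted p = 0.799). With sets averaged (2 against 3 samples), the values were -3.53 for Tyrobp (adjusted p = 0.0759) and 1.85 for Apoe (0.186), none of the 9 members was called, and 0.395% of genes were. Tyrobp lost the call without SST040241L, SST04241LL or SST3-M, and Apoe without any of these or SST4-M, at adjusted p = 0.0531 to 0.0796 and 0.110 to 0.188.

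Tyrobp has the shortest transcript of the 10 members, 564 bases in the GENCODE M1 annotation, against 986 for Cst7, 1088 for Trem2, 1386 for Apoe and 4265 for Axl. Among the tested genes with a length, 398 were shorter than 800 bases, and their median dated minus numbered difference was -0.56, with 67.6% of them lower in dated samples. For the 2894 genes of 800 to 2000 bases, among them Apoe, Trem2 and Cst7, the median was -0.12 and the share lower was 54.9%, while Apoe was higher. For the 5203 genes of 2000 to 4000 bases the median was 0.06 and the share lower was 46.8%. The part of transcript length in the Tyrobp value was not tested. Of the other lists, H2-D1 (-1.43, adjusted p = 0.0426), a class I histocompatibility gene, was the 1 gene lower of 7 disease-associated stage 1 genes that are not members. Bcl10 (-1.19, adjusted p = 0.0496), which links such receptors to NF-kB, was the 1 lower of 15 TREM2 signalling genes. Lipa (-1.32, adjusted p = 0.0413), the lysosomal acid lipase, was the 1 lower of the 15 tested genes of APOE and lipid handling. None of these lists had a gene called higher, and 0 of 17 tested stage 2 genes and 0 of 12 homeostatic genes were called. Median differences were -0.93 for stage 1, -0.38 for stage 2, 0.60 for TREM2 signalling, 0.23 for lipid handling and -0.18 for homeostatic genes, beside -0.31 for the 9 tested members and -0.00415 for all genes. The neuronal gene Snap25 was lower (-2.17, adjusted p = 0.0105). Of 10 genes that respond to dissociation, 4 were lower, Dusp1 (-3.20), Zfp36 (-2.94), Fosb (-2.53) and Egr1 (-2.43), at adjusted p = 0.011, 0.0236, 0.0179 and 0.0316. With sets averaged, no gene of any of these lists was called.

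In the sex comparison of control Sst samples (7 females against 6 males), Cd9 was lower in females and Trem2 lay lower without passing the test. Cd9 differed by -0.68 (SE 0.20, adjusted p = 0.0429), the only call among 10 members, where 11.7% of 14498 genes were called. Females had a mean of 51.8 ± 8.97 FPKM (SD, n = 7) and males 85.4 ± 25.2 (n = 6). Leaving out 1 sample in turn lost the call in 10 of 13 fits, at adjusted p = 0.0584 to 0.0970. The call was lost with sets averaged (-0.66, adjusted p = 0.619), where 0 of 10 members and 0.104% of 14441 genes were called. It was also lost with the homeostatic marker mean as a covariate (-0.15, adjusted p = 0.736), where 19 of 14498 genes were called. Trem2 differed by -0.70 (SE 0.23, adjusted p = 0.0575). Homeostatic marker means were 7.29 to 8.18 in female and 7.87 to 9.03 in male libraries, so the microglia list moved with Cd9 and Trem2.

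The sex difference of Tyrobp was of opposite sign with each kind of male title, and that of Apoe was called only against dated males. Against numbered males, whose titles are of the same kind as the females', Tyrobp was lower in females by -1.35 (SE 0.22, adjusted p = 0.0138), and no female reached the lowest male. Trem2 did not overlap either (-0.79, SE 0.23, adjusted p = 0.0697). These 2 of 10 members stand beside 9.73% of genes that did not overlap, and the 1 call beside 3.41% of 14443 genes. The Tyrobp value was -1.18 without SST0-M and SST1-M (adjusted p = 0.0131), -1.66 without SST4-M (0.00131) and -1.21 without SST3-M, where the call was lost (0.0575). Of all genes, 899 of 14461, 1090 of 14438 and 100 of 14446 were called in these fits. Without SST0-M and SST1-M, which left SST3-M and SST4-M as the males, Axl was called too (1.02, adjusted p = 0.0166). That made 2 of 10 members. Apoe differed by 0.31 (SE 0.26, adjusted p = 0.466) from numbered males, and the groups overlapped. With sets averaged, Tyrobp differed by -1.33 from numbered males (adjusted p = 0.762), and without SST0-M and SST1-M as well Tyrobp differed by -1.16 (0.357) and Axl by 0.96 (0.302), with 0 of 10 members and 0.215% of 14438 genes called. Against dated males, Tyrobp was higher in females by 2.39 (SE 0.24, adjusted p = 2.28e-05), Apoe lower by -1.71 (SE 0.29, adjusted p = 0.000786) and Cd9 lower by -0.75 (SE 0.20, adjusted p = 0.00989), 3 of 10 members where 41.5% of genes were called. With sets averaged (3 against 2 samples) Tyrobp was called at 2.20 (SE 0.43, adjusted p = 0.0245), 1 of 10 members where 10.3% of 14516 genes were called, and Apoe (-1.72, 0.0751) and Cd9 (-0.82, 0.152) were not. Over all males the 2 directions met in 0.52 for Tyrobp (SE 0.69, adjusted p = 0.637) and -0.70 for Apoe (SE 0.43, adjusted p = 0.287). The remaining members (Lpl, Cst7, Itgax, Spp1, Clec7a and Axl) were not called against males of either title kind. Their differences over all males ran from -0.33 for Lpl to 0.55 for Axl. The median of the 10 members was -0.29, beside 0.07 for all genes.

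Of the 15 genes of the TREM2 signalling list, which also holds TREM2 sheddases, 10 were lower and 0 higher in the sex comparison. The median difference was -1.06, against 0.07 over all genes, of which 11.7% were called. Among the 10 were the phosphatase Ptpn6 (-1.69, adjusted p = 0.0121), the kinase Syk (-1.64, 0.00326), the phospholipase Plcg2 (-1.44, 0.0215) and the TREM2 sheddase Adam10 (-1.10, 0.0117). Homeostatic genes were lower for 6 of 12 (median -0.75), with Cx3cr1, the fractalkine receptor, at -1.40 (adjusted p = 0.0101), Gpr34 at -1.22 (0.0244), Siglech at -1.04 (0.0228) and Selplg, a ligand of P-selectin, at -1.01 (0.0363). Of 17 tested stage 2 genes, 4 were lower, Ctsz (-0.85), Gusb (-0.82), Hif1a (-0.80) and Ctsl (-0.75), at adjusted p = 0.0183, 0.033, 0.0295 and 0.0368. No stage 1 gene (0 of 7) and no gene of APOE and lipid handling (0 of 15) was called. With numbered males alone, 2 of 15 TREM2 signalling genes stayed lower, Syk (-1.32, adjusted p = 0.0174) and Inpp5d (-0.77, 0.0499). With sets averaged, 0 of the 15 and 0 of the 12 homeostatic genes were called. With the homeostatic mean as a covariate 0 of the 15 were called (median -0.45), where 19 of 14498 genes were. The homeostatic list cannot be tested in that fit, because the covariate is its own mean. With small nucleolar RNA genes left out and the totals made equal, the median of all genes moved to 0.26 and 7 of the 15 TREM2 signalling genes were lower. There 0 of 10 members were called (Cd9 -0.43, adjusted p = 0.127), where 2383 of 14486 genes were. Beside these, astrocyte genes had a median difference of 0.38 and endothelial genes of 1.09, with 0 of 10 and 0 of 7 called. Of the genes that respond to dissociation 3 of 10 were lower in females, Junb (-1.40, adjusted p = 0.0379), Jun (-1.10, 0.0173) and Ier2 (-0.91, 0.0371). Their part in the differences was not tested.

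Between control Sst and Pvalb samples (13 against 6), Itgax was lower in Sst and Spp1 lay higher. All Pvalb samples were labelled male with numbered titles, whereas the Sst samples held 7 females and 3 dated males, so subtype runs with sex and title kind. With Sst males only 0 of 10 members were called, where 491 of 14395 genes were. With Sst females only 5 of 10 were called, where 3638 of 14502 genes were, a fit not run with sets averaged. Itgax differed by -1.02 (SE 0.29, adjusted p = 0.0345), 1 of 10 members where 7.8% of 14524 genes were called. Pvalb samples had 3.42 ± 2.80 FPKM (SD, n = 6) and Sst samples 1.08 ± 0.90 (n = 13). Leaving out 1 sample in turn lost the call in 11 of 19 fits, at adjusted p = 0.0506 to 0.0769. Without the pair PV0-M and PV2-M the Itgax difference was -0.75 (adjusted p = 0.0576) while Trem2 was called (-0.80, adjusted p = 0.0314). This was 1 of 10 members where 2130 of 14507 genes were called. With sets averaged the Itgax difference was -1.11 (adjusted p = 0.956), where 0 of 10 members and 0.0069% of 14493 genes were called. With sets averaged and without that pair Trem2 differed by -0.61 (adjusted p = 0.868), where 0 of 10 members and 0.0277% of genes were called. Without the 3 Pvalb libraries of high Xist none of the 10 members was called, where 0.0964% of 14519 genes were, and Itgax differed by -1.38 (SE 0.37, adjusted p = 0.155). Spp1 differed by 1.35 (SE 0.43, adjusted p = 0.055), and with numbered titles only by 1.45 (SE 0.45, adjusted p = 0.0488), which was the 1 call of 10 members where 10.2% of 14483 genes were called. With sets averaged and numbered titles only it was 1.58 (adjusted p = 0.981), where 0 of 10 members and 0.00693% of genes were called. The Pvalb libraries of high Xist listed Spp1 at 0, and without them the difference was 0.76 (SE 0.56, adjusted p = 0.627). Trem2 differed by -0.64 (SE 0.24, adjusted p = 0.101) and Tyrobp by -1.25 (SE 0.54, adjusted p = 0.151). The other 6 members differed by -0.37 to 0.32 and were not called. The median of the 10 members was -0.24, beside 0.00357 for all genes.

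Of 7 endothelial genes, 6 were higher in Sst (median 2.72), such as Itm2a (3.03, adjusted p = 0.0112) and Ly6c1 (2.93, 0.032). Of 8 neuronal genes, 2 were lower in Sst, Snap25 (-1.87, adjusted p = 0.0224) and Rbfox3 (-1.79, 0.0216). Both interneuron marker genes that name the lines were lower in Sst samples, Pvalb by -1.42 (adjusted p = 0.00441) and Sst by -2.05 (0.0488). All 12 homeostatic microglia genes had negative differences (median -0.44) and 0 were called. With numbered titles only, where 10.2% of genes were called, 3 of the 12 were lower (median -0.58). They were Selplg (-1.05, adjusted p = 0.0336), Tmem119 (-0.87, 0.0458) and Sall1 (-0.78, 0.0238). Without PV0-M and PV2-M 2 of the 12 were lower, where 2130 of 14507 genes were called. Of the TREM2 signalling, stage 1, stage 2 and lipid handling genes, only Serpine2 was called (-0.58, adjusted p = 0.0112), a secreted protease inhibitor of the stage 2 list. With sets averaged, none of these lists had a call. The part of the other cell types in the Itgax and Spp1 values was not tested.

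CUS in Sst males (3 CUS against 6 control samples) gave no call among the 10 members, where 0.00698% of 14319 genes, 1 gene, passed in limma after adjustment and 1070 genes were below 0.05 before it. The largest differences were -2.32 for Tyrobp (SE 1.05, adjusted p = 0.641) and 1.11 for Apoe (SE 0.62, adjusted p = 0.641). All CUS libraries have dated titles. Against dated controls (3 against 3), Tyrobp differed by -0.45 (SE 0.34, adjusted p = 0.679), Apoe by 0.10 (SE 0.33, adjusted p = 0.919) and Trem2 by -0.30 (SE 0.31, adjusted p = 0.733). Again 0 of 10 members were called, where 0.00705% of 14186 genes were, and 956 genes were below 0.05 before adjustment. Against numbered controls, 3 of 10 members were called, Tyrobp at -4.19 (SE 0.30, adjusted p = 0.00164), Apoe at 2.12 (SE 0.24, adjusted p = 0.00539) and Cst7 at -1.002 (SE 0.26, adjusted p = 0.0432), where 16.1% of 14326 genes were called. With sets averaged (1 CUS sample, assumed to vary like the controls, against 3) these were -4.18 (adjusted p = 0.193), 2.13 (0.533) and -0.999 (0.788), with 0 of 10 members and 0.268% of 14186 genes called. Without averaging, 6 of 10 members did not overlap (Tyrobp, Apoe, Cst7, Itgax, Trem2 and Clec7a), where 44.7% of genes did not overlap. With these controls CUS and title kind cannot be told apart. The sex, title kind and CUS comparisons share the control Sst males, and the sex and subtype comparisons share all control Sst samples.

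Clec7a lay higher in CUS males without passing the test. It had 0.820, 1.28 and 1.35 FPKM in CUS males and 0 to 0.942 FPKM in control males, so the groups overlapped through SS04031R. The difference was 0.69 (SE 0.24, adjusted p = 0.641), 0.53 against dated controls (SE 0.24, adjusted p = 0.647) and 0.85 against numbered controls (SE 0.24, adjusted p = 0.0581). In the lists, 12 of 12 tested homeostatic genes had negative differences under CUS (median -0.82), as did 7 of 7 stage 1 genes (median -0.82), whereas 7 of 7 oligodendrocyte (median 1.25) and 7 of 7 endothelial genes (median 1.56) had positive ones. No gene of these lists, nor of the stage 2, TREM2 signalling and lipid handling lists, was called. Against dated controls the homeostatic median was -0.65, the stage 1 median -0.30 (5 of 7 lower) and the TREM2 signalling median -0.48 (15 of 15 lower), again with 0 called. Positive differences were found there for 10 of 10 dissociation genes (median 0.54), 10 of 10 astrocyte genes (0.41), 7 of 7 oligodendrocyte genes (0.91) and 7 of 7 endothelial genes (1.57). Among the dated controls SS04031R stood apart. Its astrocyte mean was 5.04, against 6.27 in SST040241L and SST04241LL and 6.24 to 6.38 under CUS. Its endothelial mean was 1.44, against 4.53 and 4.45, and 4.68 to 5.16 under CUS. Its TREM2 signalling mean was 5.71, against 4.85 and 4.84, and 4.59 to 4.79 under CUS. Its dissociation mean (7.06) was instead the dated control nearest to CUS. The part of these other lists in the microglial values was not tested. Against numbered controls, where 16.1% of all genes were called, 4 of 7 stage 1 genes were lower, such as B2m (-2.30, adjusted p = 0.0146), as were 4 of 17 stage 2 genes, such as the lysosomal glycoprotein Cd68 (-1.68, 0.0134), and 4 of 12 homeostatic genes, such as P2ry13 (-1.68, 0.0116). In the same fit 4 of 10 dissociation genes were lower and 1 higher, and 2 of 7 oligodendrocyte and 2 of 7 endothelial genes were higher. With sets averaged, no gene of these lists was called.

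**Figure D4:**
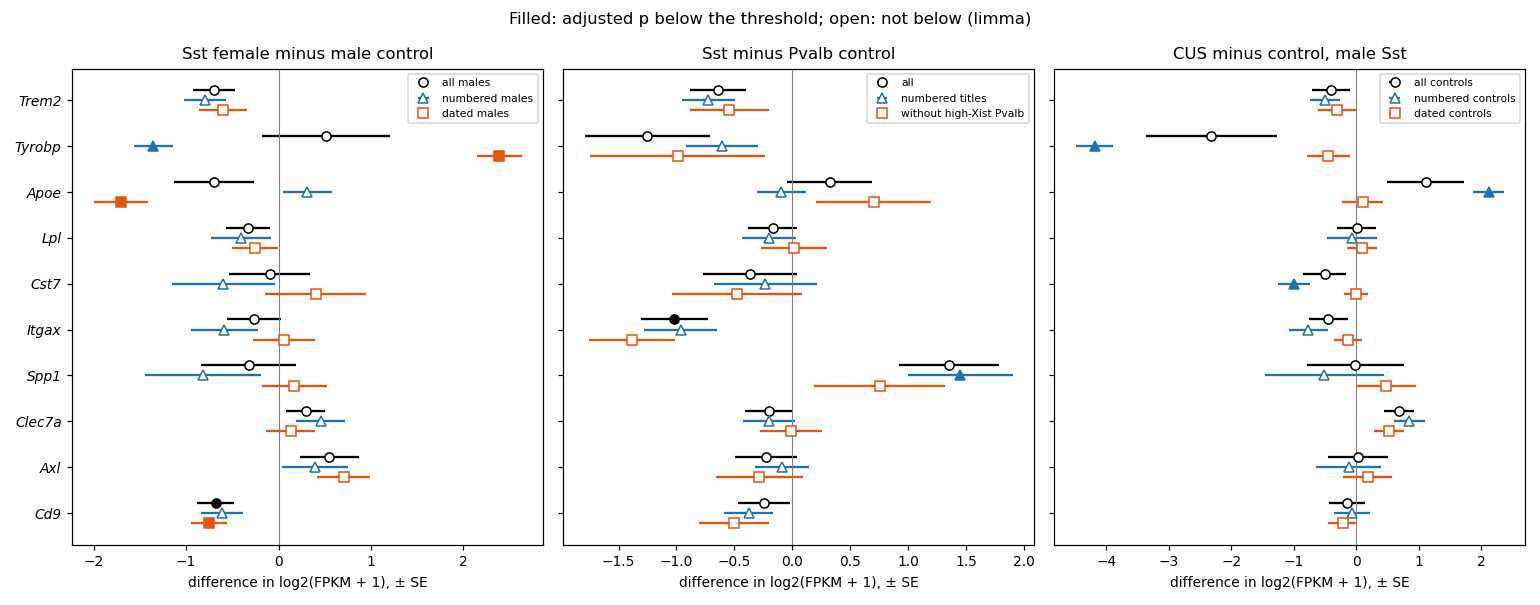
Differences of the 10 members in log2(FPKM + 1) with standard errors (horizontal axis) for the sex, subtype and CUS comparisons, each with all samples and with 2 restrictions. Filled symbols passed an adjusted p of 0.05 in limma. In the sex panel Tyrobp and Apoe change side with the kind of male title, Apoe without a call against numbered males, and Trem2 and Cd9 are below 0 in all 3 panels.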

How the data were processed

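RNA sequencing of sorted cells gave FPKM values in 1 table, which the authors made and deposited with 1 column per library and 23993 gene rows. The study's methods name HISAT2 on mm10 with StringTie, and FPKM for display. The submitters' processing notes name TopHat2, Cufflinks and Cuffdiff with mm10. Which of these made the table, whether batch correction touched it and whether strand was used are not given in the sources used here. Every column was matched to a label (0 columns not used). FPKM keep no read counts, so the depth behind a value is unknown.

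For near-identical libraries, the SD of the log2 ratio was taken over genes above 5 FPKM. The closest pair of a group was averaged if its SD was below 10% of that of the next closest pair. Values were taken as log2(FPKM + 1), which understates changes of low genes. For each comparison, genes averaging more than 0.4 FPKM entered a linear model in limma (version 3.58.1, R 4.3.3) with a robust, mean-dependent prior variance. P-values were two-sided and adjusted by Benjamini-Hochberg over every gene entered, with a threshold of 0.05. Differences are female minus male, Sst minus Pvalb, CUS minus control and dated minus numbered. The code was tested on simulated data with known changes.

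The members and the gene lists were chosen with earlier results of these data known. All members were named. Of the lists, genes past the threshold were named, at most 4 per list by size of difference, and for each member the 3 genes (of 13256 with a mean above 1 FPKM) with the highest Pearson r. Positions and upstream windows came from RefSeq tables of GRCm38.p6 and transcript lengths from GENCODE M1 by symbol (87.8% of tested genes matched). Alternatives covered the filter, the pseudocount, scaling, the limma prior, the near-identical pairs, microglia content, title kind, the samples entered and leaving out each sample. The averaging of closely alike libraries (SD of the log2 ratio below 0.35), also within subsets, the covariate (mean of 12 homeostatic microglia genes) and the fits with numbered males less 1 sample were chosen after seeing the data. A further gene of the homeostatic list is not reported here and entered neither the list's counts nor the covariate.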

Additional observations from a re-analysis of the deposited data

Results flagged for a closer look

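Within groups of 6 or 7 samples, each member was checked for a sample whose gap to its nearest neighbour exceeded the 95% limit of Dixon's test. Of 30 such checks 11 passed the limit, and all 11 came from 3 samples. The test's rate of about 1 in 20 holds for independent samples, so it is no reference for groups with closely alike libraries. The mean of PV0-M and PV2-M was lowest in Tyrobp among Pvalb samples at 460.3 FPKM (next 1015) and highest in Cst7 at 9.99 FPKM (next 2.88), Itgax at 9.02 (2.64), Axl at 29.7 (23.3) and Cd9 at 128.4 (82.6). SST-F was highest among females in Lpl at 2.43 FPKM (next 1.35), Cst7 at 7.37 (3.04), Itgax at 3.05 (0.925) and Spp1 at 4.92 (2.92). The mean of SST0-M and SST1-M was highest among control Sst males in Lpl at 3.26 FPKM (next 1.46) and Spp1 at 28.9 (4.38). Each of these samples also formed a set of its own among the closely alike libraries.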

How the results depend on the processing

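Values below are differences in log2(FPKM + 1), counts are members or genes past an adjusted p of 0.05 in limma, and where a call was lost or a sign turned the cause was not tested unless the sentence shows fewer samples. The table holds no read counts, so what depth limits for the 5 low members cannot be stated. The homeostatic mean used as a covariate is that of 12 genes, and the fit with the mean of the complete list is not reported here.

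In the sex comparison, 0 members were called with quantile normalization (2029 of 14498 genes, Apoe 0.0209) or with small nucleolar RNA genes left out (2383 of 14486 genes, Cst7 0.0134). In the latter fit 82.7% of calls were higher, against 53.6% in the main one. With the homeostatic mean as a covariate 0 members and 19 genes were called (Trem2 0.0472, Cst7 0.81, Itgax 0.40, Axl -0.24). Averaging closely alike libraries gave 0 members and 15 genes (Cst7 0.26), with numbered males only 0 members and 16 genes (Tyrobp -1.33, Apoe 0.13), without SST0-M and SST1-M as well 0 members and 31 genes (Tyrobp -1.16, Apoe 0.31, Lpl 0.11, Spp1 0.50), and with dated males only 1 member and 1500 genes (Cst7 0.88, Itgax 0.23, Spp1 0.57, Clec7a -0.0526). Numbered males alone gave 493 genes, and title kind as a covariate 228, both with Tyrobp at -1.35 and Apoe at 0.31. Dated males alone gave 3 members and 6032 genes (Cst7 0.40, Itgax 0.0593, Spp1 0.17). Numbered males without SST0-M and SST1-M gave 2 members and 899 genes (Tyrobp -1.18, Apoe 0.49, Spp1 0.32), without SST3-M 0 members and 100 genes (Tyrobp -1.21, Apoe 0.26, Axl -0.0451), and without SST4-M 1090 genes (Tyrobp -1.66, Apoe 0.19). With near-identical libraries kept separate 2 members were called, where 2179 of 14434 genes were. With all groups sharing the spread 2 members were called as well, where 2939 of 14498 genes were. A pseudocount of 5 put Cst7 at 0.0192. Leaving out 1 sample gave 0 to 3 members and 667 to 3552 genes, with Cst7 at -0.40 to 0.11 and Spp1 at -0.61 to 0.23.

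In the subtype comparison, 2 members were called with a pseudocount of 0.1 (1078 of 14524 genes), a common median (1128 of 14527) or small nucleolar RNA genes left out (1066 of 14480). The same number was called with near-identical libraries separate (1042 of 14510 genes) or all groups sharing the spread (1600 of 14524). No member (0) was called with the homeostatic mean as covariate (974 of 14524 genes, Cd9 0.13) or with closely alike libraries averaged (1 gene). Such averaging with numbered titles only gave 0 members and 1 gene (Apoe -0.10). Without PV0-M and PV2-M it gave 0 members and 4 genes (Lpl 0.0322, Cst7 0.27, Cd9 0.0241). Likewise 0 members were called with Sst males only (491 genes, Lpl 0.0110, Cd9 0.12) or without Pvalb libraries of high Xist (14 genes, Lpl 0.0125). Sst females only gave 5 members where 3638 of 14502 genes were called (Axl 0.0282), a fit not run with sets averaged. Numbered titles put Apoe at -0.0934. Leaving out 1 sample gave 0 to 3 members and 389 to 2130 genes.

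Against CUS, gene counts were 3 without a filter and with near-identical libraries separate (Lpl -0.0988, Axl -0.17), 6 with controls of both sexes (Spp1 0.16, Axl -0.26, Cd9 0.22), 19 with all groups sharing the spread, and 19 with closely alike libraries averaged (Spp1 0.0248), where the single CUS sample is assumed to vary like the controls (numbered controls only: 38 genes, Lpl -0.0361, Axl -0.12). Numbered controls gave 3 members and 2309 genes (Lpl -0.0669, Axl -0.12). Spp1 was 0.48 with dated controls or title kind as covariate, 0.15 with a pseudocount of 0.1, 0.0129 with a common median and 0.0132 without small nucleolar RNA genes. A pseudocount of 5 gave Lpl at -0.000623 and Axl at -0.00966, quantile normalization Lpl at -0.14 and Cd9 at 0.0838, and the homeostatic mean as covariate Trem2 at 0.30, Lpl at -0.19, Axl at -1.05 and Cd9 at 0.37. Leaving out 1 sample gave 1 to 3 genes, with Axl at -0.20 to 0.31, Lpl at -0.18 to 0.19 and Spp1 at -0.30 to 0.54.

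For title kind, no filter gave 1 member and 381 genes, quantile normalization 1106 genes (Trem2 0.15), near-identical libraries separate 1769 genes, all Sst samples with covariates 3755 genes, and closely alike libraries averaged 0 members and 56 genes. With small nucleolar RNA genes left out 32.9% of calls were higher in dated samples, against 43.9%. Leaving out 1 sample gave 0 to 3 members and 54 to 1962 genes, with Trem2 at -0.56 to 0.0198, Axl at -0.75 to 0.31, Cd9 at -0.0919 to 0.41, Lpl at -0.45 to 0.19 and Spp1 at -1.76 to 0.15.

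Deviations of same-numbered samples correlated at -0.05 to 0.05 between sexes and -0.04 to 0.12 between subtypes. Such pairs were few and were not set against differently numbered ones, so whether title numbers pair the samples cannot be told. With a replicate block, the sex comparison of numbered titles gave 0 members and 13 genes (Tyrobp -1.44, Apoe 0.39), and the subtype comparison of numbered males 0 members and 10 genes (Tyrobp 0.16, Apoe -0.38, Lpl 0.0517, Cst7 0.67, Cd9 0.19).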
